A study of Mus musculus with 6 samples.

Results

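The kinesin motor family was examined in T-ALL (T-cell acute lymphoblastic leukaemia) of the mouse, with and without Phf6. Members were taken by name: every gene of the table whose symbol is Kif or Kifc followed by a number and at most a single letter, with a mean normalised read count of at least 5 over the 6 libraries. Of 23306 genes with an identifier, 35 carried such a symbol and 34 reached that mean. Kif19a, at a mean of 1.70, was left out, and the lowest member was Kif5c, at 10.9. Kifap3 and Kif1bp, which encode partners of kinesins and not motors, were not members. The family was divided by the rule into 8 mitotic kinesins (Kif2c, Kif4, Kif11, Kif15, Kif18b, Kif20a, Kif22 and Kif23) and the other 26. Of those 26, Kif14, Kif18a, Kif20b, Kifc1 and Kifc5b are also counted as mitotic motors here, which leaves 21 outside mitosis.

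PolyA RNA had been sequenced from 3 tumours labelled Phf6 wild type and 3 labelled Phf6 knockout, all harvested from bone marrow, isogenic and on the C57BL/6 strain. The Phf6 protein sits in the nucleus, carries PHD-like zinc fingers and is often lost by mutation in T-ALL of patients. Its deletion was conditional and relied on a tamoxifen-inducible Cre recombinase, and animals received intraperitoneal tamoxifen or only the corn oil vehicle. The labels do not say which samples received which, so an effect of the drug itself cannot be told apart from that of the deletion. The driver of Cre, the oncogene of the leukaemia and the age of the animals are not given there. Whether each sample of a group is from its own animal is not stated, so p-values measure only the spread between these samples, which may be technical. As the samples are isogenic, they stand for a single leukaemia background.

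Kinesins are motor proteins that use ATP to walk along microtubules or to shorten their ends. In dividing cells, members of the family push spindle poles apart, move chromosomes and organise the midzone where the cell is cut, and their transcripts are made mainly in G2 and M phase. In resting cells other members carry organelles, vesicles and RNA, build cilia or set the length of microtubules. Promoters of genes expressed in G2 and M often hold a cell cycle genes homology region (CHR, letters TTTGAA), which binds the DREAM and MYB-MuvB complexes, and CCAAT boxes, which bind NF-Y.

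Reads assigned to genes numbered 51011800 to 54953145 in the wild types and 46067511 to 47110984 in the knockouts. Phf6 itself, in normalised reads, stood at 5508, 4240 and 5075 in the wild types (libraries 1 to 3) and at 1781, 2337 and 1755 in the knockouts (libraries 1 to 3), lower in each of the latter but not absent. All 19 T-cell markers of the table had reads in every library, with summed levels of 8712 to 9046 CPM (reads of a gene scaled to a common library total) in wild type and 7411 to 8395 in knockout. The fit across 17993 genes called 8.75% of them, 5.32% higher and 3.43% lower in knockout (limma on log2(value + 2), Benjamini-Hochberg adjusted p under 0.05). Values below are normalised read counts, that is reads divided by the authors' size factor of each library, and log2 fold changes are knockout over wild type on the log2(value + 2) scale. Of the 19 T-cell markers 3 fell in knockout and none rose, against 3.43% of all genes that fell. These were Cd247 (-0.57), Cd5 (-0.48) and Tcf7 (-0.49), and the list median was -0.21. Of the 19, 13 had negative and 6 positive log2 fold changes, from -0.70 to 0.53. The number that fell was 3 in edgeR and 4 in DESeq2. Of 16 alternatives, the call of Cd247 held in 16 and those of Cd5 and Tcf7 in 12. Bulk RNA does not separate fewer cells of a type from less RNA per cell.

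The sequences at RefSeq starts of the mitotic kinesin genes show a feature that the choice of members did not use. RefSeq promoter windows (GRCm38.p6, 250 bases before to 50 after the start) were found for 7 of the 8 mitotic kinesins, and Kif20a had no entry. All 7 held TTTGAA on either strand. The motif was found in windows of 4 of 5 other mitotic kinesins, 1 of 15 kinesins outside mitosis and 20.2% of the 27025 genes of the promoter table. Kifc1 and Kifc5b, both among those 4, are near copies of each other and hold nearly the same letters around the motif. The first base of the motif lay within 30 bases of the start in 6 of the 7 mitotic kinesins and 3 of the 5 other mitotic kinesins. It did so in 1 of 15 kinesins outside mitosis and 3.66% of the genes of the table. This distance was chosen after the positions were seen. The 30 bases around the occurrence nearest to the start are shown to compare its setting between genes, on the strand of the gene, with the motif in capitals (TTCAAA is TTTGAA read on the opposite strand).
Kif11 (chr19:37376351-37376380, plus strand): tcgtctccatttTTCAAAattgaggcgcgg
Kif15 (chr9:122951050-122951079, plus strand): tggggcgccaaaTTCAAAtctgcggccatc
Kif22 (chr7:127042420-127042449, minus strand): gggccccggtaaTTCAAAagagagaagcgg
Kif18b (chr11:102925104-102925133, minus strand): cggaccggctagTTTGAAcgcgccgcgccg
Kif23 (chr9:61946780-61946809, minus strand): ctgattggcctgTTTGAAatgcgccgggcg
Kif4 (chrX:100626072-100626101, plus strand): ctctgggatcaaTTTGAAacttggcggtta
Kif2c (chr4:117178858-117178887, minus strand): ccaggctgctctTTCAAAcctgagtaatgc
Kif26b (chr1:178529104-178529133, plus strand): tgggagaatttcTTTGAActcagttagcga
Kif11, Kif15 and Kif22 held the element in reverse just before the start, with its first base at position -19, -19 and -17. In Kif18b, Kif23 and Kif4 it stood forward just after the start, at positions 4, 3 and 20. Kif2c had it at -103 from a RefSeq start that lies 3867 bases inside the gene as GENCODE draws it, 28 bases from the start of a shorter annotated transcript. The RefSeq start of Kif4 lay 328 bases inside its GENCODE gene, while those of the other 5 mitotic kinesins were within 51 bases of the GENCODE gene start. Kif26b, the only kinesin outside mitosis with TTTGAA in its window, had it at -9. When TTCGAA was allowed as well, the count among mitotic kinesins was again 7, and 21.7% of the genes of the table held either form.

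CCAAT boxes, searched on both strands, were found in 5 of 7 mitotic kinesins, 3 of 5 other mitotic kinesins, 5 of 15 kinesins outside mitosis and 41.1% of the table. At least 2 boxes were found in 3 of 7, 2 of 5 and 2 of 15 of these genes, and in 13.3% of the table. Those 2 of 5 were the near copies Kifc1 and Kifc5b, which also count in the 3 of 5. The 120 bases before the start are given for Kif11, the most abundant mitotic kinesin in reads, and for Kif26b, the kinesin with the largest rise, with CCAAT boxes (here as ATTGG, the opposite strand) and TTTGAA in either direction in capitals.
Kif11 (chr19:37376262-37376381, plus strand): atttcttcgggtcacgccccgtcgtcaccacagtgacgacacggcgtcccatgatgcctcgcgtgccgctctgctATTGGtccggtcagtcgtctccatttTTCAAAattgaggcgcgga
Kif26b (chr1:178529005-178529124, plus strand): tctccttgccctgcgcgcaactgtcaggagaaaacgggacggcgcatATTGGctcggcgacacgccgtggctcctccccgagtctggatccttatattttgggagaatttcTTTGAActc
Both stretches held a reversed CCAAT box upstream of the CHR letters, which ran in opposite directions in these 2 genes. A match of letters is a description and not evidence of binding.

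Knockout and wild-type libraries were compared to ask whether kinesin transcripts differ when Phf6 is lost. In the main test 2 of 34 members rose (Kif26b and Kif17), 1 fell (Kifc2), and the other 31 did not pass. Over all genes 8.75% were called (5.32% rose and 3.43% fell), so the family was called at about the rate of all genes tested. In the count tests edgeR called the same 2 rises and no fall (8.16% of all genes called) and DESeq2 called 2 and 1 (12.4%). Unadjusted p was under 0.05 for 10 of the 34, against 25.2% of all genes, and the groups did not overlap for 8 of 34, against 31.2%. No mitotic kinesin passed, although the log2 fold changes of all 8 were negative, from -0.39 for Kif11 to -0.19 for Kif23 and Kif4, with a median of -0.27. For reference, 51.7% of all genes tested had a negative log2 fold change and their median was -0.01. The median of the other 26 kinesins was -0.02, with 14 negative and 12 positive; it was 0.06 with library totals as scaling, against 0.07 for all genes and -0.19 for the mitotic kinesins. All 34 members passed the filter on low values (at least 10 in at least 3 libraries). Kif17 passed it only through its knockout libraries, so its test was bound to favour a difference.

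**Figure D1:**
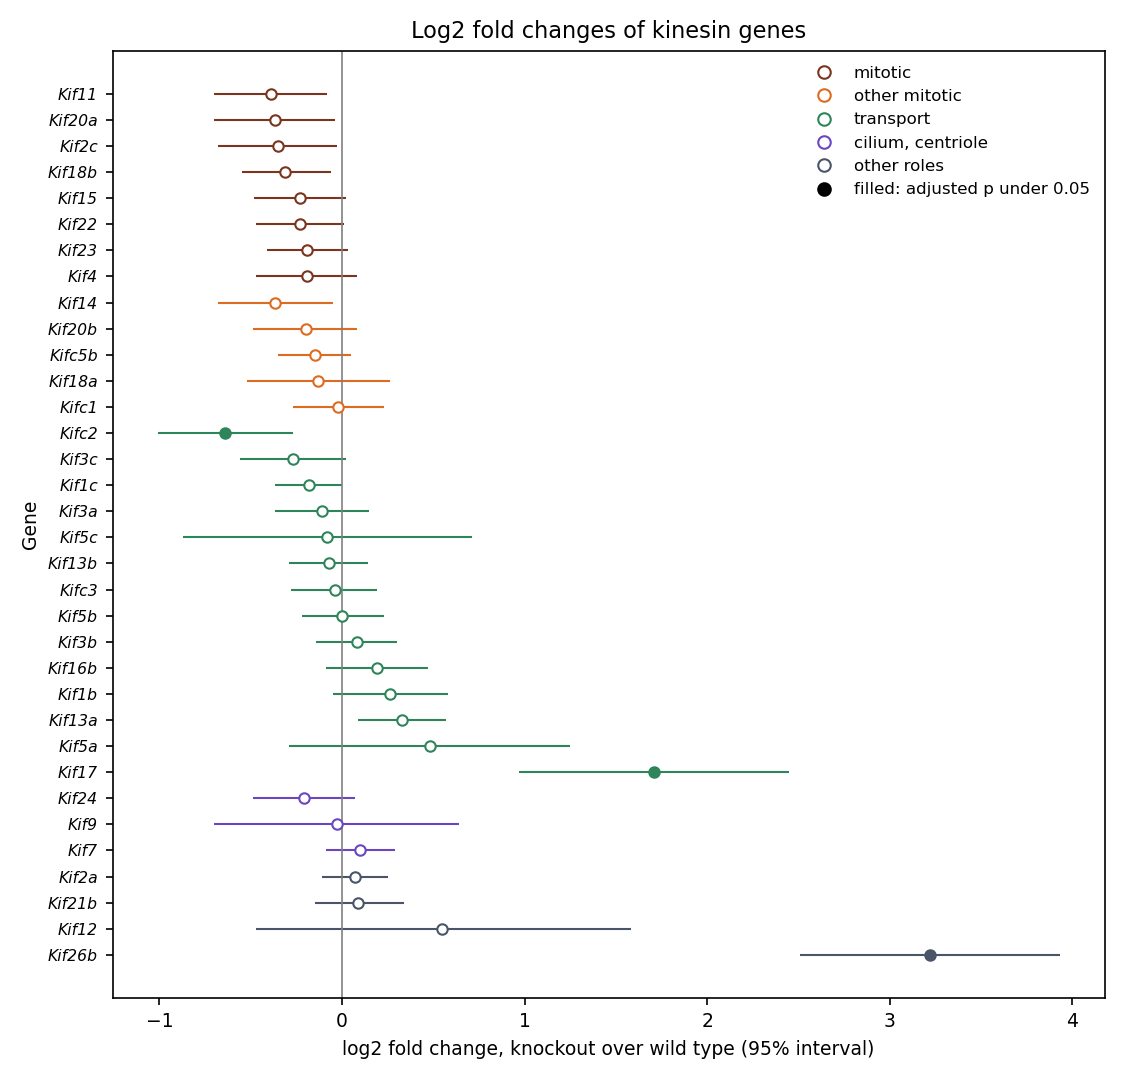
Log2 fold change, knockout over wild type, of the 34 kinesin genes (rows, grouped by role in colour), with the 95% interval of the limma fit; filled points have an adjusted p under 0.05. The 8 mitotic kinesins lie between -0.39 and -0.19, while Kif26b (3.22) and Kif17 (1.71) stand to the right and Kifc2 (-0.64) to the left.

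Among the mitotic kinesins the spindle motor Kif11 had the largest difference. Kif11, the bipolar kinesin-5 that pushes spindle poles apart (ENSMUSG00000012443; GRCm38 chromosome 19, 37376403 to 37421859, plus strand), had 7440, 5211 and 6391 reads in the wild types (libraries 1 to 3), against 5140, 5168 and 4146 in the knockouts (libraries 1 to 3). It was the only one of the 8 whose groups did not overlap, and the gap between wild-type library 2 and the highest knockout was small. Over all genes, 16.2% had every knockout library below every wild type. The means of Kif11 were 6348 ± 1115 and 4818 ± 582 (SD, n = 3 each), which gave a log2 fold change of -0.39 ± 0.14 (SE; adjusted p = 0.115, limma), with a 95% interval from -0.70 to -0.08. Kif15, a kinesin-12 that can keep the spindle bipolar together with Kif11, had 4794, 3753 and 4539 reads in wild type and 3768, 4033 and 3306 in knockout. Its log2 fold change was -0.23 (95% interval -0.48 to 0.02), and wild-type library 2 lay below knockout libraries 1 and 2.

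Motors that act on chromosomes and microtubule ends had values of the same order. Kif2c (MCAK), a kinesin-13 that depolymerises microtubules at centromeres, had 2998, 2110 and 2896 reads in wild type and 2293, 2116 and 1818 in knockout (log2 fold change -0.35 ± 0.14 SE, limma adjusted p = 0.165). Kif18b, a kinesin-8 that shortens astral microtubules, had 2758, 2319 and 2615 reads in wild type and 2334, 2060 and 1838 in knockout, with a log2 fold change of -0.31 ± 0.11 (SE; adjusted p = 0.115, limma). In both genes wild-type library 2 was at the level of the upper knockout libraries. Kif22 (Kid), the kinesin-10 that moves chromosome arms, had 4285, 3702 and 4495 reads in wild type and 3988, 3415 and 3241 in knockout. Kif4, an X-linked chromosome-bound motor that also works at the midzone, had 3496, 2869 and 3472 in wild type and 3239, 2965 and 2426 in knockout. Their log2 fold changes were -0.23 and -0.19, with 95% intervals from -0.47 to 0.01 and from -0.47 to 0.08. The groups overlapped in both.

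Kif20a and Kif23, which act in cytokinesis, belong to the kinesin-6 class. Kif20a (MKLP2), which brings the chromosomal passenger complex to the midzone, had 3299, 2430 and 3296 reads in wild type and 2729, 2222 and 2021 in knockout, which gave a log2 fold change of -0.37 ± 0.15 (SE; adjusted p = 0.158, limma). Kif23 (MKLP1), the motor of centralspindlin, had 4764, 4097 and 4488 in wild type and 4076, 4177 and 3478 in knockout, at -0.19 ± 0.10 (SE; adjusted p = 0.264, limma). In each of them knockout library 3 was lowest and the groups overlapped.

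**Figure D2:**
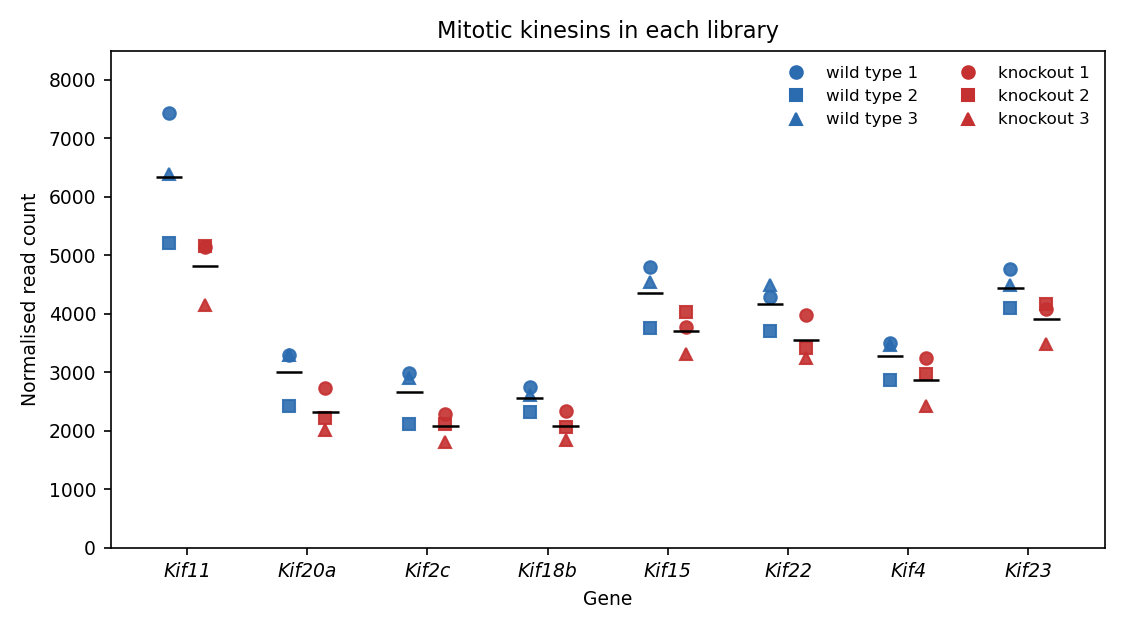
Normalised read counts of the 8 mitotic kinesins (x axis) in each library, with wild type in blue, knockout in red, symbols for library number and black bars for group means. Wild-type libraries 1 and 3 are the upper pair for all 8 genes, knockout library 3 is the lowest for all 8, and wild-type library 2 lies among the knockouts for most.

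The order of the libraries was nearly the same for all 8 mitotic kinesins. Wild-type libraries 1 and 3 were the highest pair for 8 of 8, knockout library 3 the lowest for 8 of 8, and wild-type library 2 was below at least 1 knockout library for 7 of 8. Unadjusted p was under 0.05 for 4 of 8 (limma), all lower in knockout, against 12.5% of all genes tested. Because the 8 shared nearly the same order of libraries, they are not independent of each other. They were also chosen with earlier results of these data known. Adjusted p ran from 0.115 to 0.367 in limma, from 0.123 to 0.428 in edgeR and from 0.0703 to 0.494 in DESeq2, and neither of the count tests called any of the 8. With 1 library left out, none of the 8 was called in 5 of 6 cases. Those 5 fits called 191 to 958 genes over the whole table, against 1575 in the main test. Knockout library 3 was the lowest for all 8, so leaving it out had to narrow the difference. Without knockout library 3 the lowest adjusted p was 0.337 (limma), the median was -0.20, and 191 of 17500 genes tested were called. Wild-type library 2 was the lowest wild type for all 8, so leaving it out had to widen the difference. Without it, 3 of the 8 fell: Kif11 (-0.52, limma adjusted p = 0.0222), Kif20a (-0.52, limma adjusted p = 0.029) and Kif2c (-0.51, limma adjusted p = 0.019), and the median was -0.36. Over all genes 10.9% were called without that library, and 4.40% of all genes fell.

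The other mitotic motors of the family had smaller or similar differences, and none passed. Kif14, which binds citron kinase in cytokinesis, had 2299, 1619 and 2182 reads in wild type and 1658, 1654 and 1374 in knockout, with a log2 fold change of -0.37 (limma adjusted p = 0.138). Kif20b stood at -0.20, and Kif18a, which dampens chromosome movement at the metaphase plate, at -0.13 with a 95% interval from -0.52 to 0.26. Without wild-type library 2, Kif14 (-0.53, limma adjusted p = 0.0172) and Kif20b (-0.35, limma adjusted p = 0.0483) fell as well. Kifc1 (HSET), the minus-end directed motor that clusters centrosomes, had 3956, 3989 and 4166 reads in wild type and 4750, 3774 and 3517 in knockout. Its log2 fold change was -0.02 (95% interval -0.27 to 0.23), its highest value was in knockout library 1, and its sign turned with the scaling (0.06 with library totals, 0.01 in edgeR). Kifc5b, at -0.15, is a near copy of Kifc1: the longest transcripts of these 2 genes were 95.9% identical over 2375 aligned bases, so reads may be split between them and both values are uncertain.

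Kif26b had the largest difference of the family and was higher in every knockout library. Kif26b is a kinesin-11, a class whose motor lacks ATPase activity, and it acts in cell adhesion and Wnt5a-ROR signalling during kidney and limb development (ENSMUSG00000026494; GRCm38 chromosome 1, 178529125 to 178939200, plus strand). It had 15.0, 16.8 and 8.13 reads in the wild types (libraries 1 to 3), against 97.0, 170 and 151 in the knockouts (libraries 1 to 3). The lowest knockout library was several times the highest wild-type library. The wild-type values of Kif26b were close to the filter minimum of 10, so the size of the difference is uncertain. The means were 13.3 ± 4.57 and 140 ± 38.1 (SD, n = 3 each), a ratio of 10.5, and the log2 fold change was 3.22 ± 0.32 (SE; adjusted p = 0.00155, limma). The call held in all 16 alternatives run, with log2 fold changes from 2.67 to 3.46. With a minimum of 1 CPM (on unadjusted library totals) Kif26b passed only through its knockout libraries, so that alternative is no independent support. Kif26b overlaps annotated genes on both strands (Gm34176 and Gm24405 on its own, Gm16564 on the other), and the strand setting of the counting is not stated.

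Kif17 rose from a very low level. Kif17 encodes the homodimeric kinesin-2 motor known for carrying NMDA receptor subunits in neurons and for its place in cilia (ENSMUSG00000028758; GRCm38 chromosome 4, 138250435 to 138301967, plus strand). It had 6.01, 3.95 and 5.42 reads in wild type and 24.0, 19.7 and 20.1 in knockout, so the groups were clearly apart. The means were 5.13 ± 1.06 and 21.3 ± 2.37 (SD, n = 3 each), with a log2 fold change of 1.71 ± 0.33 (SE; adjusted p = 0.0147, limma) and of 2.04 in edgeR (adjusted p = 0.0133). Kif17 passed the filter of the main test only through its knockout libraries, which favours a difference. It was called in the 12 alternatives that tested it, which is therefore no independent support. With a minimum of 1 CPM, or with any 1 knockout library left out, it did not pass the filter and was not tested. Kif17 overlaps Sh2d5 on the same strand, which had 140, 153 and 103 reads in wild type and 153, 231 and 238 in knockout (log2 fold change 0.63, limma adjusted p = 0.116); reads shared between them were not tested.

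Markers of other cell types differed beside these 2 rises. Of 24 neutrophil and granulocyte markers 11 rose and none fell, against 5.32% of all genes that rose, with summed levels of 162 to 584 CPM in wild type and 1271 to 1666 in knockout. The number that rose was 7 in edgeR, 22 in DESeq2 and 16 with library totals as scaling. Of 20 monocyte and macrophage markers 6 rose and none fell (6 in edgeR, 9 in DESeq2), with sums of 150 to 393 and 325 to 654 CPM. Of 13 tested B-cell markers 8 rose and 1 fell, with sums of 347 to 432 CPM in wild type and 246 to 314 in knockout; Ebf1 and Ms4a1 were at 0 in at least 1 library. Of these 8, Blk, Ms4a1 and Pax5 passed the filter only through knockout libraries, so the count is no support for a rise of the list. Of 9 tested stromal and endothelial markers 4 rose and 1 fell, at 1242 to 1298 and 1531 to 1859 CPM, with Col3a1 at 0 in at least 1 library. Of 14 erythroid and megakaryocyte markers Selp rose, and Pf4 was at 0 in at least 1 library. None of the neutrophil or monocyte markers was at 0 in any library. Within the wild types, library 2 had the highest neutrophil sum (584 CPM, against 162 and 258). Kif26b was 16.8 there against 15.0 and 8.13, and Kif17 was 3.95 against 6.01 and 5.42, all low counts. Monocyte sums were 238, 393 and 150 CPM in the wild types and 325, 654 and 438 in the knockouts (libraries 1 to 3). Kif26b had the same order of libraries within each group as these monocyte sums, and Kif17 did not. The part of these cells in the 2 rises was not tested.

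Kifc2 was the member that fell. Kifc2 is a kinesin-14 with a C-terminal motor, best known from neurons (ENSMUSG00000004187; GRCm38 chromosome 15, 76659858 to 76668196, plus strand). It had 417, 345 and 390 reads in wild type and 229, 214 and 298 in knockout, and the groups did not overlap. The means were 384 ± 36.8 and 247 ± 44.6 (SD, n = 3 each), which gave a log2 fold change of -0.64 ± 0.17 (SE; adjusted p = 0.0423, limma). The call was lost in edgeR (-0.62, adjusted p = 0.0575), with library totals as scaling (-0.56, adjusted p = 0.0831), with upper-quartile scaling (-0.61, adjusted p = 0.0662) and without any single library other than wild-type library 2 (adjusted p from 0.0625 to 0.176). Cyhr1, which overlaps it on the opposite strand, had 3960 to 4092 reads in wild type and 3363 to 3997 in knockout (-0.16, limma adjusted p = 0.302).

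**Figure D3:**
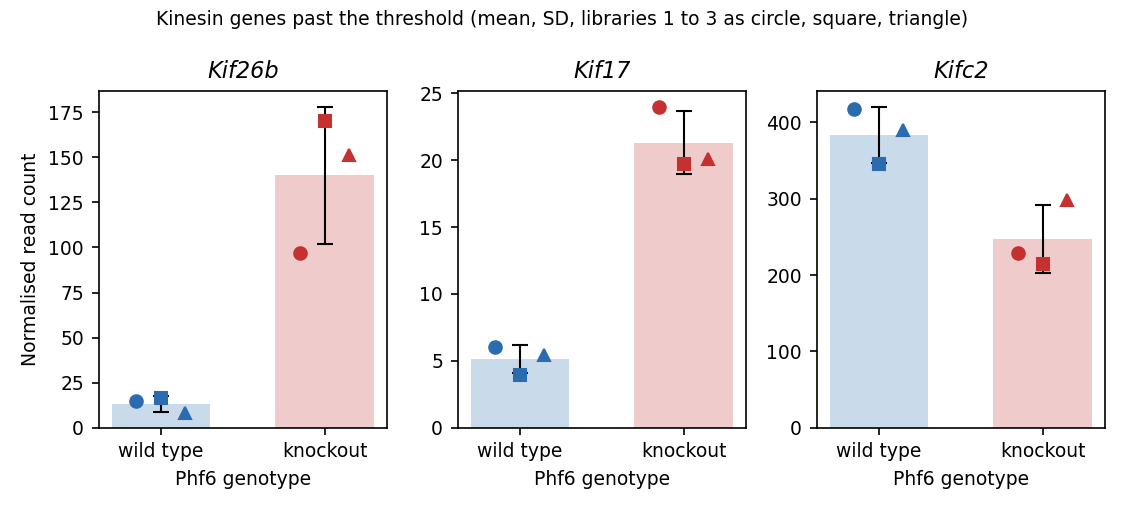
Normalised read counts of the 3 kinesin genes past the threshold, with bars for group means, error bars for the SD (n = 3) and points for the libraries. Kif26b goes from 13.3 to 140 and Kif17 from 5.13 to 21.3, while Kifc2 goes from 384 to 247.

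Transport kinesins made up 14 members, of which Kif17 rose, Kifc2 fell and 12 did not pass, with a median log2 fold change of -0.02. The kinesin-1 heavy chain Kif5b, the general carrier of vesicles and mitochondria, had 10483, 10960 and 9641 reads in wild type and 9741, 11892 and 9637 in knockout, with a 95% interval of its log2 fold change from -0.22 to 0.23. Its neuronal relatives were nearly silent, Kif5a at a mean of 22.1 reads and Kif5c at 10.9. The heterotrimeric kinesin-2 subunits Kif3a and Kif3b stood at -0.11 and 0.08, and Kif3c at -0.27. In the kinesin-3 class Kif13a, which moves endosomes and melanosome cargo, had 2306, 1898 and 2324 reads in wild type and 2871, 2454 and 2863 in knockout. Its groups did not overlap, as for 15.0% of all genes with knockout higher, and its log2 fold change of 0.33 had a 95% interval from 0.09 to 0.57 but did not pass (limma adjusted p = 0.0911). Kif1c lay the other way, at 2928 to 3181 reads in wild type and 2544 to 2765 in knockout (-0.18, limma adjusted p = 0.19), again with groups apart. Kif1b, Kif13b, Kif16b and Kifc3 had log2 fold changes of 0.26, -0.07, 0.19 and -0.04.

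Most of the remaining members set microtubule length or act at cilia. Kif21b, a kinesin-4 that limits microtubule growth and is expressed in lymphocytes and neurons, had by far the most reads of the family, 19891 to 24404 in wild type and 21355 to 26835 in knockout (log2 fold change 0.09, 95% interval -0.15 to 0.34). Per kilobase of annotated exon its mean was 1926 reads, ahead of 1302 for Kif5b, 1179 for Kifc1, 786 for Kif22, 771 for Kif2a and 748 for Kif11; the last 3 were close to each other. Kif2a, a microtubule depolymerase that also works at spindle poles, was at 0.07 (95% interval -0.11 to 0.25). Kif12, known from kidney, had widely scattered values, with 161, 234 and 475 reads in wild type and 542, 279 and 377 in knockout (0.55, 95% interval -0.47 to 1.58). Of the 3 cilium and centriole kinesins, Kif7, a regulator of Hedgehog signalling, had 1455 to 1474 reads in wild type and 1503 to 1656 in knockout. Its log2 fold change was 0.10 (limma adjusted p = 0.505) although the groups did not overlap. Kif24, which restrains cilium formation at centrioles, was at -0.21 and Kif9 at -0.03.

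Partners of the mitotic motors had the same order of libraries in their list median as the mitotic kinesins. Of 41 spindle, kinetochore and midzone genes, 40 were below 0 on the log2 scale (median -0.25) and 1 passed, against 3.43% of all genes that fell: Spc24, a kinetochore subunit (-0.43, limma adjusted p = 0.0411). The number that fell was 1 in edgeR, 6 in DESeq2 and 0 with library totals as scaling. Hmmr, a spindle assembly protein, was at -0.52 (limma adjusted p = 0.0541), the checkpoint kinase gene Bub1b at -0.48 (limma adjusted p = 0.0595) and Numa1, which focuses spindle poles, at -0.32 (limma adjusted p = 0.0739). Of 22 markers of cycling cells, 18 had negative values, with a median of -0.27, and 3 fell, the replicative helicase subunits Mcm2 (-0.45), Mcm5 (-0.37) and Mcm6 (-0.38), while Mcm7 was at -0.29 (limma adjusted p = 0.063). The number that fell was 3 in edgeR, 5 in DESeq2 and 1 with library totals. The cycling list summed to 4909 to 5677 CPM in wild type and 3889 to 4722 in knockout. Each gene was also expressed relative to its mean over the 6 libraries, and the median over a list was taken in each library. For mitotic kinesins these medians were 0.26, -0.08 and 0.20 in the wild types (libraries 1 to 3), against 0.00, -0.11 and -0.33 in the knockouts (libraries 1 to 3) on the log2 scale. For the spindle partners they were 0.24, -0.03 and 0.19, then 0.00, -0.07 and -0.32, and for the cycling markers 0.19, -0.01 and 0.15, then -0.08, 0.00 and -0.29. For the 21 kinesins outside mitosis they were 0.02, -0.06 and -0.03, then 0.01, -0.02 and 0.12. Knockout library 3 was thus lowest for the first 3 lists and highest for the last, and the part of the cycling fraction of cells in the mitotic kinesin values was not tested.

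**Figure D4:**
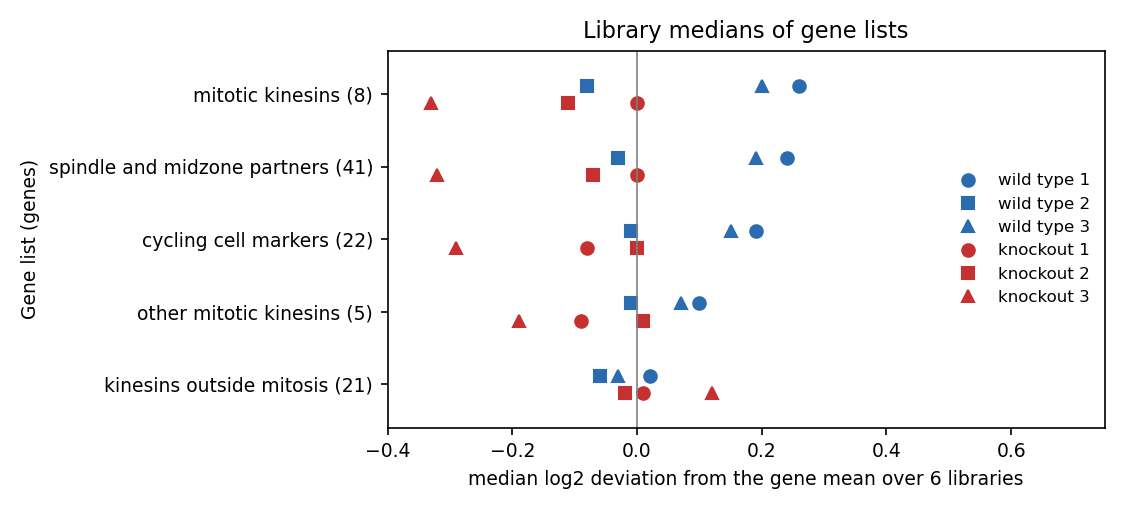
Median log2 deviation from the gene mean over the 6 libraries (x axis) for 5 gene lists (rows, number of genes in brackets), with a point for each library. Wild-type libraries 1 and 3 lie highest and knockout library 3 lowest for mitotic kinesins, spindle partners and cycling markers, whereas kinesins outside mitosis lie between -0.06 and 0.12.

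The tracks and cargo links of kinesins were measured from gene lists as well, and the counts stand against 8.75% of all genes called, 3.43% as falls. Of 19 tested kinesin light chain and cargo adaptor genes none passed in limma, edgeR or DESeq2 (3 at an unadjusted p under 0.05), with Cep170 at -0.29, the JNK-interacting adaptor gene Spag9 at 0.23, Kif1bp at -0.24 and the light chain gene Klc3 at -0.43. Among 31 dynein and dynactin genes, which drive movement toward minus ends, the light chain gene Dynll1 fell from 7469 ± 389 to 4567 ± 489 reads (SD, n = 3 each; -0.71, limma adjusted p = 0.00422) and the adaptor gene Bicdl1 rose from 1725 ± 50.7 to 2630 ± 195 (0.61, limma adjusted p = 0.00483). Nde1 (-0.35) and Dynlt3 (-0.48) did not pass. Of 17 tubulin genes 2 fell (2 in edgeR, 4 in DESeq2), the delta tubulin gene Tubd1 (-0.79, limma adjusted p = 0.0138) and the gamma tubulin gene Tubg1 of microtubule nucleation (-0.45, limma adjusted p = 0.0244). The abundant Tubb4b (-0.36) and Tuba1b (-0.35) did not pass, at limma adjusted p of 0.0592 and 0.0697. Among 23 cilium and Hedgehog genes the receptor gene Smo (-0.47) and Ttc21b (-0.50) fell, Gli1 (0.63) rose, and Ift43 (-0.66, limma adjusted p = 0.0625) did not pass. Of 16 alternatives, the calls of Dynll1 and Bicdl1 held in 16, Tubd1 in 14, Mcm2 in 13, Tubg1 and Smo in 12, Mcm5, Mcm6 and Gli1 in 11, Spc24 in 10 and Ttc21b in 9.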

How the data were processed

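PolyA RNA from 6 T-ALL tumours was sequenced as paired ends of 150 bp after NEBNext Ultra library preparation, per the labels' protocols. Per the submitters' processing notes, the tools were bcl2fastq 1.8.4, STAR 2.6.0a, featureCounts, DESeq2 and the build GRCm38, and the annotation, strand setting and multi-mapping rule were not given in the sources used here. The values the authors deposited are a normalised signal, read counts over a size factor for each library. The values themselves show it, since 100.0% of those in every library were whole multiples of a single step within 0.01. Of 23314 rows, 8 without an identifier were left out.

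The main test was limma 3.58.1 (R 4.3.3, trend and robust) on log2(value + 2) for genes of at least 10 in at least 3 libraries, with the group as the only term and Benjamini-Hochberg adjustment over all genes (threshold 0.05). Alternatives were other scalings, filters and pseudocounts, edgeR 4.0.16 and DESeq2 1.42.0 on the recovered reads, a replicate block and each library left out. In a simulation of independent genes the share of false calls was above the nominal threshold. It held far fewer changed genes than were called here, so that share does not carry over to these data. Calls close to the threshold are treated as weak. Positions and exon lengths are from GENCODE M21 (GRCm38), promoter sequences from RefSeq (GRCm38.p6). Of 34 members, 27 had a promoter entry. Named by rule were the mitotic kinesins, the called members, the 3 largest differences in each direction and the members nearest to the minimum. For each list of motor partners, tubulins, cilium genes and cycling cells, up to 4 genes of smallest p were also named by rule. In the marker lists of cell types that rule was not followed in full. Other named members were chosen after their values were seen. Members and lists were chosen with earlier results of these data known. Figures used Python 3.11.15 and matplotlib 3.10.9.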

Additional observations from a re-analysis of the deposited data

How the results depend on the processing

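The 8 mitotic kinesins had negative log2 fold changes in every alternative run, with medians from -0.36 to -0.19, and Kif26b was called in all of them. Over all 34 kinesins and their 534 values under alternatives, 8 lost a call (all Kifc2) and 9 gained a call (Kif11 and Kif20a 2 each, Kif2c, Kif13a, Kif14, Kif18b and Kif20b 1 each). The sign changed in 19, all of genes not called: Kifc1 7, Kif9 5, Kif5b and Kifc3 2 each, and Kif5c, Kif13b and Kif18a 1 each. These counts do not cover genes outside the family, whose lost calls stand beside their values. Whether replicate numbers pair the samples is not stated, and the values do not settle it. Deviations from group means correlated at 0.01, 0.50 and 0.14 for numbers 1, 2 and 3. Between unlike numbers they correlated at -0.48 to 0.38. With the replicate block 2568 genes, 7 kinesins and 3 mitotic kinesins (Kif11, Kif18b and Kif20a) were called, and Kif13a was called as well (adjusted p = 0.0215, limma). The block also raised the falls among spindle partners to 8 and among cycling markers to 7. Leaving out single libraries gave 191 to 1939 called genes, 1 to 8 called kinesins, 0 to 3 mitotic and 1 to 5 other kinesins. The lowest count of genes came without knockout library 3, and the highest of each came without wild-type library 2. Counts of genes were 464 without wild-type library 1, 665 without wild-type library 3, 958 without knockout library 1 and 873 without knockout library 2. Without each knockout library in turn Kif17 was not tested and Kifc2 lost its call, which left Kif26b. Library totals moved the split of called genes to 1217 higher and 300 lower (957 and 618 in the main test) and moved the median of all genes from -0.01 to 0.07. The median of the other kinesins was 0.01 with upper-quartile scaling, 0.06 with library totals and -0.06 to 0.03 without single libraries, so its sign is not fixed. Low counts limit Kif17, Kif5a, Kif5c and Kif9, and the wild-type level of Kif26b.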
